A study of Caenorhabditis elegans with 66 samples.

Results

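The loci described here are the motif-independent piRNA loci of *C. elegans* chromosomes II, III and V. They are positions at which a short capped RNA starts 2 nt upstream of a U and which the authors' table of piRNA precursors assigned to the second of its types. The members were taken by that type and by chromosome, and the locus overlapping the snoRNA gene *W04D2.7* was left out. This gave 2549 of the 11382 loci of the table, of which 6266 belonged to the motif-dependent (21UR) type and the rest lay on chromosomes I, IV and X.

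The study compared young adult animals of 3 genotypes, grown at 20 °C on HB101 bacteria, to ask whether the RNA polymerase II subunit RPB-9 is needed for transcription at piRNA loci. Germ nuclei were separated into a chromatin-bound (nascent) and a nucleoplasmic fraction, and their short capped RNA was sequenced in 2 libraries per genotype and fraction, 12 in all. The paper images the piRNA sensor transgene, named *mjIs144* for its wild type, in animals of all 3 genotypes. The titles of these libraries do not mention it. The *rpb-9* animals carried the allele *mj261*, a stop codon in place of glutamine 140. Rescue animals carried *mj261* with *mjSi70*, an *rpb-9* transgene on chromosome I driven by the germline promoter of *mex-5*. The labels give whole animals as tissue and number the libraries without saying whether they came from separate cultures, so p-values measure only the spread between these libraries. Rescue is 1 transgenic insertion and *rpb-9* is 1 allele. Tissue markers were not checked, because the table lists precursors and not transcripts.

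In *C. elegans* a piRNA, or 21U-RNA, is a germline small RNA that begins with U and guides the Argonaute PRG-1 to foreign transcripts. Each piRNA is cut from its own short capped precursor, made by RNA polymerase II. Motif-dependent loci sit in clusters on chromosome IV behind an upstream sequence, the Ruby motif, whereas motif-independent precursors are capped RNAs that start at promoters and elsewhere without that motif. Cutting of the nascent RNA by the Integrator complex, which also forms the ends of snRNAs, releases short precursors from the polymerase.

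The sequences below begin 11 of the 12 loci with the highest mean signal, because these carry most of the reads and show what the starts share and what kind of RNA each is. Each line gives the genome sequence of the strand that was read, from 1 base before the precursor's first base, over at most 30 bases. Capitals mark the base before the start and the precursor's bases 1 to 3, and the T in capitals at the end of that block is the U with which the piRNA would begin.

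C08D8.3: CACTtgttacatccaatgatgagagtttgc
sls-1.10: CGGTttaattacccaagtttgag
ant-1.1: TATTgcttctggcaagcaccgaccaccgag
eef-1B.1: CATTccttcgtgtttcactcctgaaaagat
mcm-3: TATTttcagaaaaaatggacggacaagctg
smy-3: CGCTatttataaacgctctcagggccttgc
sls-2.16: TGGTtttaacccaagttaaccaaggttagc
aldo-2: CACTtctatttttcacgatggcaactgtcg
aldo-2, second start: TATTtttcacgatggcaactgtcggaggcg
F01D5.12: TAATcacgtctggtgaggatgaaaacagga
C33F10.12: CACTtcacaaatttgtcgccgtagagaaac

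All positions are on WBcel235, the assembly also called ce11. Every sequence shown starts with a pyrimidine before the start, a purine at the start and T at the third base, and this held for nearly the whole set. A pyrimidine stood before the start at 2547 of the 2549 loci, the first base was a purine at 2547, and the third base was T at 2549. The first base was A at 74.0% and G at 25.9% of the loci, against 69.8% and 29.2% at 21UR loci. These bases belong to how the loci were defined and are a description.

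The motif CTGTTTCA was sought on the precursor's strand in the 60 nt upstream of each start, and on the opposite strand of the same window. It stood upstream of 1 of the 2549 loci (0.0392%), against 1888 of the 21UR loci (30.1%) and 16.8% of all loci of the table. The 1 locus lies at the start of *mrpl-36* on chromosome III, a gene for a mitochondrial ribosomal protein, with the motif 39 nt upstream and 2 counts in all libraries together. The shorter core GTTTC, which is part of that motif, stood upstream of 11.5% of the loci, 71.9% of 21UR loci and 45.6% of all loci. On the opposite strand it was present at 6.55% of the loci and at 7.15% of 21UR loci. Since the class is named for its lack of the motif, these shares describe the classes and are not a test. The 60 nt upstream of the loci had a GC content of 43.0%, against 26.1% at 21UR loci, whereas the bases from 20 to 80 nt downstream had 30.7% and 28.9%.

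Most of the loci lay where a coding gene begins. Of the 2549, 1535 (60.2%) were on the gene's strand between 500 nt upstream and 100 nt downstream of an annotated coding gene's start, a span called the start region here. Another 226 (8.87%) lay further inside a coding gene on its strand, 245 (9.61%) were divergent, on the opposite strand upstream of a coding gene, and 152 (5.96%) were antisense within one. Small structured RNA genes (snoRNA, snRNA and miRNA) held 26 loci (1.02%), other non-coding genes held 15, and 350 (13.7%) fell near none of these. Among 21UR loci the start-region share was 3.05% and the share near no gene 58.6%, and among motif-independent loci of chromosomes I, IV and X the start-region share was 53.3%.

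The loci were spread over chromosomes rather than clustered on 1 of them. Chromosome II held 828 loci (54.2 per megabase), chromosome III 941 (68.3 per megabase) and chromosome V 780 (37.3 per megabase). The densities on chromosomes I, IV and X were 71.6, 58.5 and 13.9 per megabase. By contrast 6166 of the 6266 21UR loci were on chromosome IV.

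The 1535 start-region loci belonged to 996 genes, and most of them lay upstream of the annotated start rather than at it. The median position was −111 nt, 1270 loci (82.7%) were upstream of the annotated gene, 389 (25.3%) were within 50 nt of its start and 401 (26.1%) were over 200 nt upstream. In 247 the start fell in an annotated 5′ UTR. Many *C. elegans* genes receive a spliced leader in place of their own 5′ end, so an annotated gene start need not be where transcription begins.

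**Figure D1:**
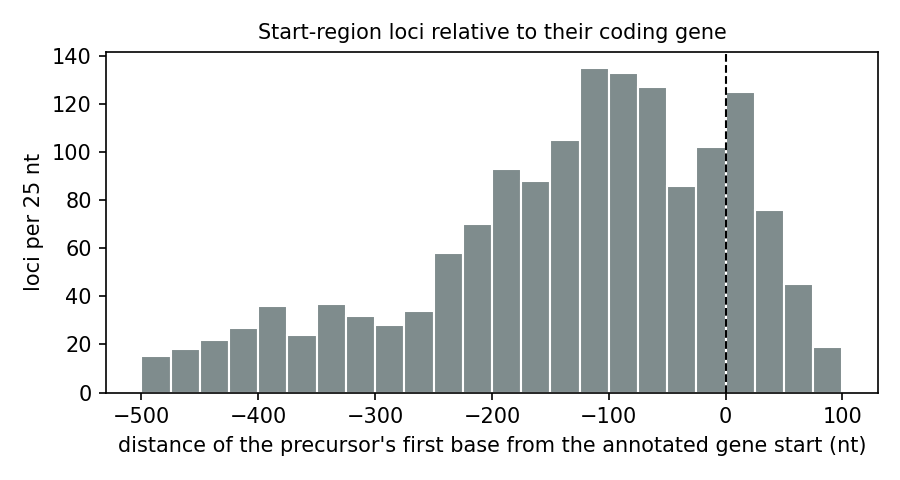
Number of start-region loci (vertical axis, loci per 25 nt) by distance of the precursor's first base from the annotated start of the coding gene (horizontal axis, nt, negative values upstream, dashed line at the annotated start). The counts are highest between 75 and 125 nt upstream and again in the first 25 nt of the gene, and 1270 of the 1535 loci lie left of the line.

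Starts were often multiple. Of the 2549 loci, 1163 (45.6%) had another within 50 nt on the same strand, and 366 genes had at least 2 start-region loci. The 12 genes with 5 or more, a cut chosen after the counts were seen, were *cpg-2*, an eggshell proteoglycan, and *mdf-1*, a spindle checkpoint protein, with 7 starts each, and *smc-4*, a condensin subunit, with 6. With 5 starts each followed *ify-1* (a securin), *hmg-12*, *hrde-1* (the nuclear Argonaute of the inherited silencing pathway), *rpl-9* (a ribosomal protein), *cyb-3* (a B-type cyclin), *oma-2* (an oocyte maturation protein), *pir-1* (an RNA phosphatase), *gpd-1* (a glyceraldehyde 3-phosphate dehydrogenase) and *cdc-48.1* (an ATPase). The 7 starts of *mdf-1* lay within 46 nt, the 7 of *cpg-2* within 169 nt.

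Of the 245 divergent loci, 121 (49.4%) had a member on the opposite strand between 0 and 500 nt away. No member began at an annotated piRNA gene, against 5960 (95.1%) of the 21UR loci. The deposited list of mature piRNAs holds 4317 entries, 18 of them on chromosomes II, III or V. None of the 2549 loci had its U at a listed piRNA's first base, against 2542 of the 21UR loci, and 1 listed piRNA lay within 21 nt of a member on its strand. The list was made by the authors and its composition limits this comparison.

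Reads were concentrated in few loci. The members held 2073202 counts in the 12 libraries, of which *C08D8.3* alone had 54.6%, the 12 most-read loci 82.4% and the 26 loci at small structured RNA genes 65.7%. The median locus had 19 counts over all 12 libraries, 964 loci (37.8%) had at most 10, 462 (18.1%) appeared in 1 library only and 79 appeared in every library. Nucleoplasmic counts were absent at 1711 loci (67.1%) and nascent counts at 13. The counts of all loci summed to between 949934 and 2125043 in the nascent libraries and between 569465 and 1593124 in the nucleoplasmic ones, and these are totals of the table, not the depth sequenced.

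Levels are given below as the authors' signal, the count of a precursor multiplied by 1 constant per library. The constant ran from 0.165 to 0.336 in nascent and from 1.01 to 2.18 in nucleoplasmic libraries, and its origin is not given in the sources used here, so levels are compared between genotypes within a fraction only. With 2 libraries against 2, an exact permutation test cannot give a two-sided p below 0.333, so summed values are reported without a test. Values are listed in the order wild type 1 and 2, *rpb-9* 1 and 2, rescue 1 and 2. In such bulk libraries fewer cells that make an RNA and less of it per cell cannot be told apart.

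The summed nascent signal of the 2549 loci lay above that of wild type in *rpb-9* as well as in rescue. It was 46349 and 62291 in wild type, 69895 and 89331 in *rpb-9*, and 72491 and 106253 in rescue. Every *rpb-9* and rescue library was above both wild-type libraries, with a ratio of means of 1.47 for *rpb-9* and 1.65 for rescue. Leaving out each library in turn gave 1.28 to 1.72 for *rpb-9* and 1.33 to 1.96 for rescue. These ratios depend on the constant, which was 0.165 and 0.215, 0.282 and 0.191, and 0.336 and 0.266 in the same order. Before scaling, the members' counts were 280743 and 290012, 247911 and 467149, and 215791 and 398968, which overlap. As shares of the table total they were 15.3 and 13.6%, 22.1 and 22.6%, and 22.7 and 24.3%, values that also depend on the other loci. The 21UR loci in the same libraries had 73113 and 161042 in wild type, 84725 and 98545 in *rpb-9*, and 37925 and 169724 in rescue, which overlap. Motif-independent loci of other chromosomes were also above wild type in every *rpb-9* and rescue library. Their ratios for *rpb-9* and rescue were 1.53 and 1.54 on chromosome I, 1.36 and 1.47 on IV, and 1.75 and 1.88 on X. The higher signal was therefore not particular to chromosomes II, III and V.

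Without the 26 loci at small structured RNA genes, an alternative chosen after the values were seen, the libraries of a genotype lay closer together. The nascent sum was then 20668 and 18445 in wild type, 25702 and 27912 in *rpb-9*, and 31691 and 32836 in rescue. The 3 genotypes did not overlap, and the ratios to wild type were 1.37 and 1.65. The loci at *ant-1.1* and *eef-1B.1*, both on chromosome III, held a large part of these sums. *ant-1.1* had 6331 and 7096 in *rpb-9* and 10360 and 11620 in rescue, and *eef-1B.1* had 3119 and 2385 and then 6066 and 3795. On chromosomes II and V, which hold neither locus, *rpb-9* and rescue overlapped, so the order of these 2 genotypes was not general.

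The nucleoplasmic sum over all 2549 loci overlapped between genotypes. It was 48209 and 20331 in wild type, 33448 and 38929 in *rpb-9*, and 39880 and 66123 in rescue. The ratio of *rpb-9* to wild type was 1.06, and it was 1.78 without wild-type replicate 1 and 0.751 without wild-type replicate 2. The ratio of rescue to wild type was 1.55, and 2.61 without wild-type replicate 1. Without the structured RNA loci the sums were 10242 and 8460, 10176 and 7330, and 13887 and 11137, with ratios of 0.936 and 1.34. Wild type and *rpb-9* then overlapped, whereas both rescue libraries lay above the other 4. A large part of these sums, too, came from the loci at *ant-1.1* and *eef-1B.1*. On chromosomes II and V, which hold neither locus, the rescue libraries were not both above the other 4.

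**Figure D2:**
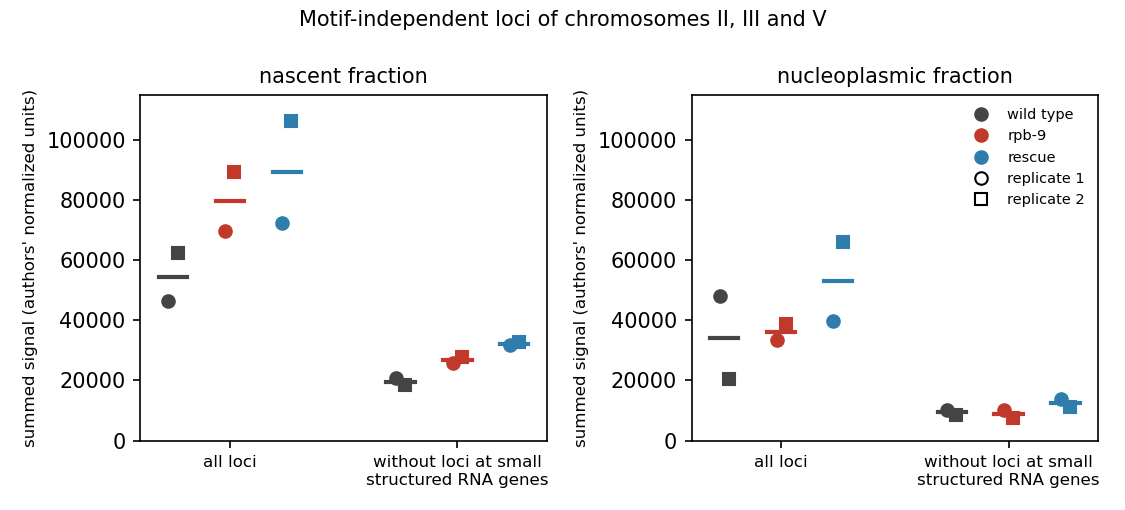
Summed signal (vertical axis, the authors' normalized units) of the motif-independent loci of chromosomes II, III and V in each library, for all 2549 loci and without the 26 at small structured RNA genes. Points are libraries (circle replicate 1, square replicate 2), bars are means of 2. In the nascent fraction every *rpb-9* and rescue point lies above both wild-type points, whereas nucleoplasmic points overlap except that, without the structured RNA loci, both rescue points lie above the others.

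By chromosome, the nascent sums are given without the structured RNA loci. Chromosome II had 3165 and 3186 in wild type, 4484 and 5036 in *rpb-9*, and 4057 and 4713 in rescue. Chromosome III had 12188 and 10378, 14790 and 15646, and 21772 and 21665. Chromosome V had 5315 and 4882, 6427 and 7229, and 5861 and 6459. On each of them both *rpb-9* libraries lay above both wild-type libraries, with ratios of 1.5, 1.35 and 1.34.

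In the nucleoplasm chromosome V stood apart, with a ratio of *rpb-9* to wild type of 0.476 against 1.40 on II and 1.16 on III. A large part of that signal came from the locus at *mcm-3*. Without that locus chromosome V had 1063 and 968 in wild type, 1263 and 881 in *rpb-9*, and 1353 and 1993 in rescue. The ratio of *rpb-9* to wild type was then 1.06, and in the nascent fraction 1.61.

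By position, the start-region loci carried most of the signal outside structured RNA genes. Their nascent sum was 17109 and 14892 in wild type, 20890 and 22449 in *rpb-9*, and 26753 and 27273 in rescue, so that both *rpb-9* libraries lay above wild type and both rescue libraries above *rpb-9*. Loci inside coding genes had 1956 and 1811, 2790 and 2977, and 2766 and 3046. Divergent loci had 423 and 438, 488 and 738, and 670 and 742. In both of these groups, too, every *rpb-9* and rescue library was above the wild-type libraries.

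The summed signal of antisense loci was not higher in *rpb-9*. Their nascent sum was 273 and 221 in wild type, 229 and 197 in *rpb-9*, and 276 and 322 in rescue. Wild type and *rpb-9* overlapped, with a ratio of 0.863. Locus by locus the picture was another. In the fit described below, 19 of 27 tested antisense loci were higher in *rpb-9*, with a median log2 fold change of 0.59.

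Abundance was tested per locus over all loci of the table with edgeR's quasi-likelihood test on counts, the authors' constants setting the scale. A locus entered where 2 or more libraries held 10 counts or more. This left 3107 loci, among them 912 of the 2549 members (35.8%) and 1413 21UR loci. Of these members, 50 passed through the libraries of 1 nascent group only (23 through wild type, 21 through *rpb-9* and 6 through rescue), so counts and medians over the tested members describe them and are not evidence about all 2549.

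No locus passed the threshold, an adjusted p-value below 0.05, in any comparison of 2 genotypes, in either fraction, nor for the difference of the *rpb-9* effect between fractions (0% of 3107). Of the 912 members, 82 (8.99%) had an unadjusted p under 0.05 for *rpb-9* against wild type in the nascent fraction, 66 of them higher and 16 lower. Over all tested loci that share was 16.9%. For the difference between fractions 54 members (5.92%) were below that p, against 6.47% of all loci. Among 21UR loci 357 were below that p for *rpb-9* against wild type in the nascent fraction, 8 higher and 349 lower. With DESeq2 in place of edgeR, this nascent comparison of *rpb-9* with wild type called 17 members higher and 1 lower. The shares over all loci were 1.26% higher and 2.09% lower. In the nascent fraction DESeq2 called 16 members for rescue against wild type, against 1.35% of all loci, and 2 for rescue against *rpb-9*, against 0.418%. In the nucleoplasm it called 21, 13 and 6 members in the same 3 comparisons, against 2.57%, 1.13% and 1.19% of all loci, and 0 for the difference between fractions (0% of all loci).

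The members' log2 fold changes lay mostly above 0 and those of 21UR loci mostly below. The median for *rpb-9* against wild type in the nascent fraction was 0.60 over the 912 members, −1.43 over 21UR loci and −0.24 over all loci. For rescue against wild type, a comparison that shares the wild-type libraries, the medians were 0.52, −0.98 and −0.18. For rescue against *rpb-9* they were −0.05, 0.49 and 0.12. Other scalings moved the median of all loci for *rpb-9* against wild type, to 0.15 with RLE factors. The members' median moved with it, from 0.60 to 0.97 with RLE factors. A scaling shifts all loci nearly alike, so the gap of 0.82 to 0.83 under each of the 4 scalings is not a test.

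The signals of many tested loci did not overlap between genotypes. Both *rpb-9* nascent libraries were above both wild-type libraries at 384 of the 912 members (42.1%), against 24.7% of all loci, and below them at 104, against 37.6% of all loci. Of the 21UR loci 2.97% were higher and 68.7% lower in this way. The shares over all loci include these 21UR loci, so they do not set the members apart from other motif-independent loci. For rescue, 356 members (39.0%) were above both wild-type libraries, against 23.7% of all loci, and 86 (9.43%) below, against 31.2% of all loci. Of the 21UR loci 3.96% were higher and 56.3% lower.

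**Figure D3:**
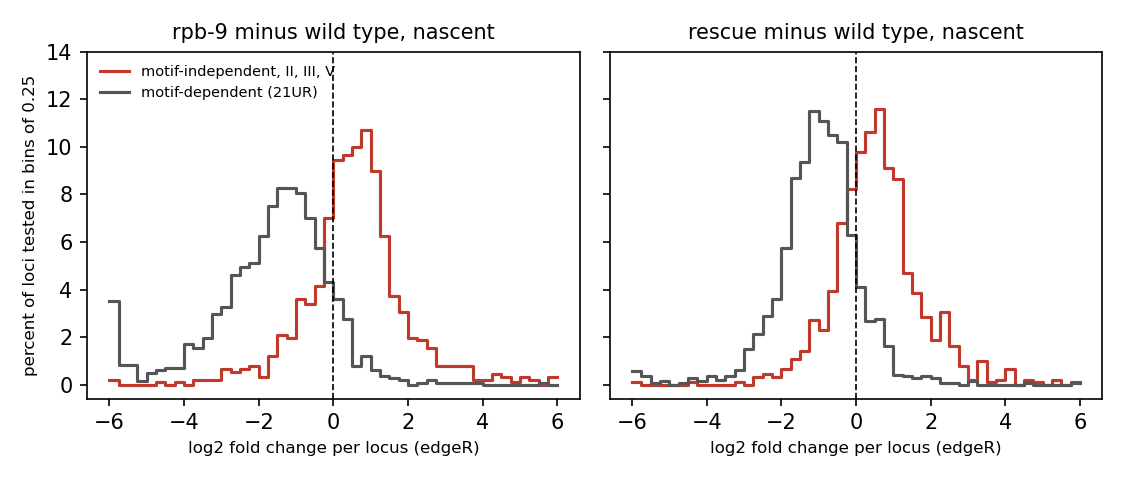
Distribution of log2 fold changes (horizontal axis, edgeR, nascent fraction, values beyond 6 placed in the outermost bins) over the 912 members and 1413 21UR loci tested, as percent of loci in bins of 0.25 (vertical axis). Left, *rpb-9* minus wild type; right, rescue minus wild type, which shares the wild-type libraries. Member medians are 0.60 and 0.52, 21UR medians −1.43 and −0.98.

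The median nascent difference of *rpb-9* from wild type was 0.63 over 603 tested start-region loci, 0.65 over 85 loci inside coding genes and 0.46 over 72 divergent loci. It was 0.59 over 27 antisense loci, 0.36 over 94 loci near no gene and 0.07 over 23 loci at structured RNA genes. In the nucleoplasm 94 members had an unadjusted p under 0.05 for *rpb-9* against wild type, 46 higher and 48 lower, which is 10.3% against 12.5% of all loci. For rescue against wild type there were 104 (11.4%, against 11.1% of all loci), 80 higher and 24 lower. For rescue against *rpb-9* there were 86 (9.43%, against 11.9%), 68 higher and 18 lower. In the nascent fraction rescue against wild type had 51 such members, 47 higher and 4 lower (5.59%, against 6.82% of all loci). Rescue against *rpb-9* had 23, 14 higher and 9 lower (2.52%, against 5.92%).

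The pooled fit shares 1 estimate of spread between fractions, and its calls differed from those of the nascent libraries alone. The cause was not tested. When the nascent libraries were fitted alone, 42 members were called higher in *rpb-9*, against 3.03% of all 3100 loci tested, and 4 lower, against 5.35%. Of the 21UR loci 6 were called higher and 158 lower. The 42 comprised 26 start-region loci, 8 inside coding genes, 3 divergent, 2 near no gene, and 1 each antisense, at a structured RNA gene and at another non-coding gene. When the nucleoplasmic libraries were fitted alone, 0 of 88 members were called for *rpb-9* against wild type with edgeR, and 14 (15.9%) had an unadjusted p under 0.05, against 0% and 14% of all 357 loci tested. The members' median was 0.15.

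The following loci are those of the sequences above, described by the kind of gene. *C08D8.3* on chromosome V (chrV:8349108-8349137, plus strand), 1 nt inside an annotated snoRNA gene, was the most-read member. Small nucleolar RNAs guide the modification of ribosomal RNA. Its nascent signal was 23466 and 30231 in wild type, 39204 and 54222 in *rpb-9*, and 31758 and 61945 in rescue, so that all 4 other libraries were above wild type. The log2 fold change of *rpb-9* was 0.80 (SE 0.49) with edgeR (adjusted p = 0.415). Its nucleoplasmic signal was 15889 and 9544, 20334 and 26947, and 23049 and 45623.

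The other members among the 11 at genes that the annotation types as snoRNA gave less steady values. That type was taken from the annotation and not checked, so a guide function is not implied for each of these genes. *smy-3* (chrV:14092568-14092597, plus strand) had nascent signals of 593 and 1271 in wild type, 589 and 865 in *rpb-9*, and 294 and 567 in rescue, which overlap for *rpb-9*. *F01D5.12* (chrII:14018416-14018445, minus strand) had nucleoplasmic signals of 42.8 and 2.18 in wild type, 43.2 and 1357 in *rpb-9*, and 164 and 522 in rescue. The high *rpb-9* value is 1 library. The log2 fold change of 4.91 (SE 1.17, edgeR adjusted p = 0.0846) rests on it, and the wild-type replicate 2 value is 1 count. Its nascent signals of 55.8 and 365, 46.2 and 96.8, and 57.1 and 78.3 overlap.

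There were 8 members at spliced leader genes, whose short capped RNAs are joined to the 5′ ends of messenger RNAs. *sls-1.10* (chrV:17118154-17118176, plus strand) encodes the SL1 leader, and its most-read sequence, 22 nt, occurs 14 times in the genome, so its counts cannot be placed on this copy. Its nascent signal was 764 and 11146 in wild type, 3645 and 5220 in *rpb-9*, and 7967 and 9961 in rescue. Its nucleoplasmic signal was 19940 and 1153, 265 and 1360, and 887 and 6744. The wild-type libraries lay on either side of all others in the nascent fraction, and leaving out nascent wild-type replicate 2 turned the log2 fold change of −0.43 (SE 0.93, edgeR adjusted p = 0.854) into 2.54.

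*sls-2.16* (chrIII:7141390-7141419, plus strand), an SL2 leader gene, used for the downstream genes of operons, began at its annotated first base. Of its counts 71.2% were a 30-nt sequence, and 184 and 227, 161 and 215, and 104 and 152 were its nascent signals. Both rescue libraries lay below both wild-type libraries, whereas wild type and *rpb-9* overlapped. Its nucleoplasmic signals were 841 and 493, 1443 and 609, and 601 and 501, which overlap.

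The coding-gene loci follow. *ant-1.1* (chrIII:13463183-13463212, plus strand), whose product exchanges ADP and ATP across the inner mitochondrial membrane, had a start in its 5′ UTR, 21 nt downstream of the annotated gene start. Its nascent signal was 5482 and 3765 in wild type, 6331 and 7096 in *rpb-9*, and 10360 and 11620 in rescue. The 3 genotypes did not overlap. The log2 fold change was 0.54 (SE 0.52) for *rpb-9* and 1.25 (SE 0.52) for rescue, neither of which passed the test with edgeR (adjusted p = 0.632 for both). DESeq2 called rescue against wild type, with adjusted p-values of 0.00257 in the nascent and 0.00794 in the nucleoplasmic fraction. It did not call *rpb-9* against wild type (DESeq2 adjusted p = 0.338 and 0.132).

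Nucleoplasmic *ant-1.1* signal followed the same order, at 1971 and 1507, 2965 and 2537, and 4348 and 3700, again without overlap. *eef-1B.1* (chrIII:7973269-7973298, minus strand), a subunit of translation elongation factor 1B, had a start in its 5′ UTR, 89 nt downstream of the annotated gene start. Its nascent signal was 3009 and 2707 in wild type, 3119 and 2385 in *rpb-9*, and 6066 and 3795 in rescue. Wild type and *rpb-9* overlapped, and the sign of the log2 fold change of −0.05 (SE 0.58, edgeR adjusted p = 0.970) turned under other scalings.

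*aldo-2*, which encodes the glycolytic enzyme fructose bisphosphate aldolase, had a pair of starts 6 nt apart (chrIII:5876309-5876338 and chrIII:5876303-5876332, minus strand). They lay 288 and 294 nt downstream of the annotated gene start, at bases annotated as 5′ UTR. The first had nascent signals of 233 and 221 in wild type, 505 and 557 in *rpb-9*, and 496 and 517 in rescue. The second had 208 and 157, 344 and 364, and 439 and 403. At both, all *rpb-9* and rescue libraries were above wild type. The log2 fold changes of *rpb-9* were 1.22 (SE 0.63) and 0.96 (SE 0.62), with edgeR adjusted p-values of 0.321 and 0.442. DESeq2 called the first start for *rpb-9*, with adjusted p-values of 0.0252 in the nascent and 0.0128 in the nucleoplasmic fraction, and not the second.

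With the nascent libraries fitted alone the first *aldo-2* start was called (edgeR adjusted p = 0.0404), as was a further start 10 nt upstream of it with 73.3 and 57.3 in wild type, 153 and 179 in *rpb-9*, and 158 and 216 in rescue. In the nucleoplasm the first start had 109 and 50.2, 262 and 192, and 288 and 405, also without overlap between wild type and the others. The second had 191 and 109, 146 and 124, and 176 and 229, which overlap.

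*C33F10.12* (chrII:4837706-4837735, minus strand) stood furthest above wild type of the 11 in the nascent fraction. Its start lay in the 5′ UTR, 25 nt downstream of the annotated gene start. Its nascent signal was 42.4 and 102 in wild type, 475 and 338 in *rpb-9*, and 378 and 465 in rescue. The groups did not overlap with wild type. The log2 fold change of *rpb-9* was 2.49 (SE 0.73), with an edgeR adjusted p of 0.0945 in the pooled fit and 0.00921 with nascent libraries alone. Nucleoplasmic signals were 41.1 and 13.1, 377 and 189, and 245 and 77.1, also above wild type in every library (log2 fold change 3.36, SE 0.79, edgeR adjusted p = 0.0824).

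*mcm-3* (chrV:15059579-15059608, minus strand) lay below wild type in both fractions. It encodes a subunit of the helicase that unwinds DNA for replication, and its precursor began 8 nt upstream of the annotated start. Unlike the other coding-gene loci among the 11, it was almost uniform, with 98.9% of its 18784 counts in 1 sequence of 30 nt. Its nascent signal was 1385 and 579 in wild type, 211 and 212 in *rpb-9*, and 216 and 271 in rescue. Both mutant and rescue libraries were below wild type.

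The *mcm-3* nucleoplasmic signal was 2019 and 2610 in wild type, 532 and 497 in *rpb-9*, and 783 and 286 in rescue, again without overlap. The log2 fold change of *rpb-9* was −2.22 (SE 0.65) in the nascent and −2.17 (SE 0.65) in the nucleoplasmic fraction, with edgeR adjusted p-values of 0.0945 and 0.216. DESeq2 called both, with adjusted p-values of 0.00386 and 0.00691, and the nascent libraries fitted alone gave 0.0137. For rescue against wild type the log2 fold changes were −2.01 and −2.11 (SE 0.65 each).

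**Figure D4:**
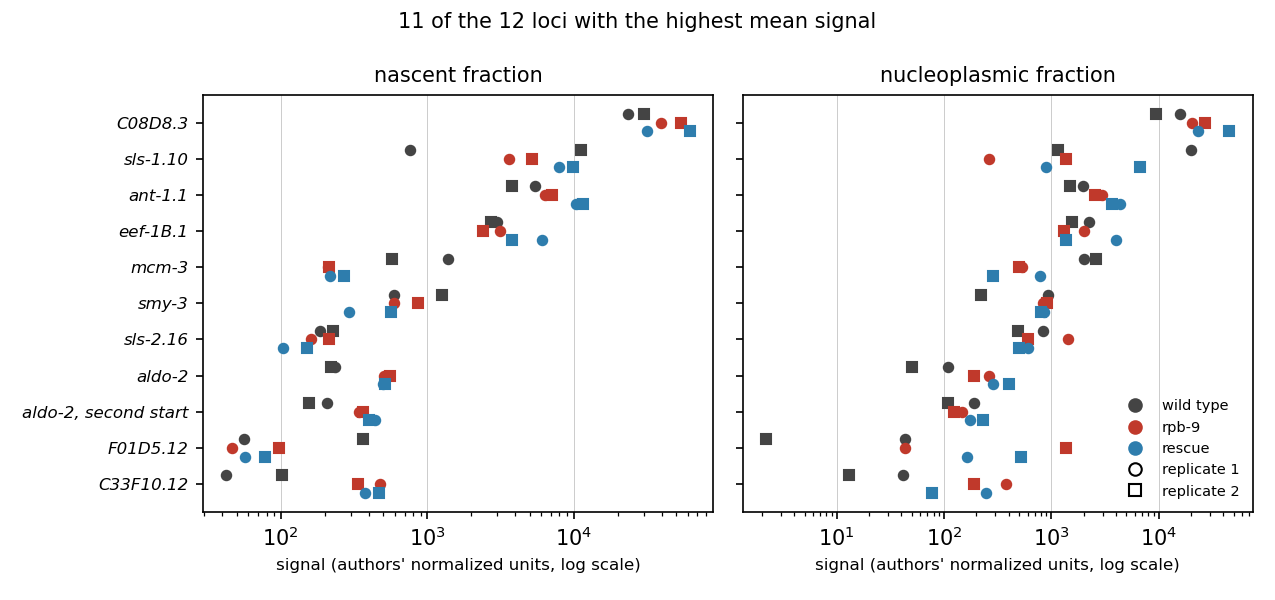
Signal (horizontal axis, the authors' normalized units, log scale) of 11 of the 12 loci with the highest mean signal in each library, nascent on the left and nucleoplasmic on the right. Colours are genotypes, circles replicate 1 and squares replicate 2. *C33F10.12* in *rpb-9* and rescue lies above wild type in both fractions and *mcm-3* below it, whereas the wild-type points of *sls-1.10* lie far apart in both fractions.

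Among the members called with nascent libraries alone, the following were chosen for naming after their values were seen. The smallest adjusted p belonged to a start on chromosome II that lies near no gene (position 8910191, minus strand). It had nascent signals of 1.65 and 3.87 in wild type, 46.8 and 47.6 in *rpb-9*, and 61.1 and 38.6 in rescue, with a log2 fold change of 4.09 (SE 0.93, edgeR adjusted p = 0.0784) in the pooled fit. For rescue against wild type the log2 fold change was 4.17 (SE 0.93).

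*wago-10*, an Argonaute of the worm-specific clade, had a start in its 5′ UTR, 32 nt downstream of the annotated gene start. That start had 1 and 3 nascent counts in wild type, 62 and 73 in *rpb-9*, and 46 and 76 in rescue. The *wago-10* start reached 10 counts in the nascent *rpb-9* and rescue libraries only, so it was tested because it was high there, and no fold is given. *nrde-2*, a nuclear RNAi factor, had a start 454 nt upstream of its annotated start, with nascent signals of 38.3 and 33.7, 139 and 211, and 118 and 117. Its log2 fold change was 2.28 (SE 0.74, edgeR adjusted p = 0.113) in the pooled fit and the adjusted p 0.00656 alone.

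*C44B9.2*, with its start at the annotated first base, had 2.15 and 4.73 in wild type, 33.8 and 35.4 in *rpb-9*, and 27.2 and 24.5 in rescue. *C32D5.8* had 19.5 and 10.3, 88.2 and 117, and 77.9 and 76.4, and *Y38H6C.15* had 7.76 and 15.5, 59.2 and 65.4, and 54.4 and 63.1. At these 3 loci, as at *wago-10* and *nrde-2*, both rescue libraries lay above both wild-type libraries. At *C44B9.2*, *C32D5.8* and *nrde-2* they also lay below both *rpb-9* libraries, whereas at *Y38H6C.15* and *wago-10* rescue and *rpb-9* overlapped. In *hsp-90*, the cytosolic chaperone gene, a pair of starts lay 978 and 984 nt inside the gene. The first had 17.2 and 18.9 in wild type, 44.3 and 55.6 in *rpb-9*, and 42 and 34.9 in rescue. The second had 51.7 and 46.6, 126 and 135, and 115 and 73.2, so that rescue was above wild type at both.

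Some starts entered the test through 1 group. *fbxb-97*, an F-box gene, had 0 and 0 nascent counts in wild type, 23 and 25 in *rpb-9*, and 0 and 3 in rescue. *C38D9.2* had 2 and 1, 38 and 78, and 0 and 5 counts. Both reached 10 counts in the nascent *rpb-9* libraries only, so they were tested because they were high there, and no fold is given. *C15H7.3* had 0 and 1, 14 and 30, and 2 and 14 counts, with both rescue counts above wild type.

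The 4 members called lower with nascent libraries alone were *mcm-3* and 3 loci with few reads. *Y110A2AR.1* had 29 and 22 nascent counts in wild type, 0 and 0 in *rpb-9*, and 3 and 12 in rescue. The antisense locus in *C16A11.4*, which lies in its coding sequence, had 57 and 59, 3 and 0, and 8 and 4 counts, and 89.3% of its counts were 1 sequence of 23 nt. It reached 10 counts in the nascent wild-type libraries only, and *Y110A2AR.1* in these and 1 rescue library, so both had to be high in wild type to be tested. *T16G12.13*, 14 nt upstream of its gene, had 130 and 173, 17 and 42, and 54 and 108 counts, and its log2 fold change was −2.17 (SE 0.90, edgeR adjusted p = 0.210) in the pooled fit.

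Precursor length, which ran from 18 to 75 nt in the table, differed between positions of the loci, read for read, by more than between genotypes. The reads had 75 bases, so 75 nt is a ceiling and longer RNAs cannot be measured. The median length of nascent reads at start-region loci was 46, 44, 44, 40, 47 and 45 nt in the 6 libraries, and at antisense loci 22, 23, 23, 30, 23 and 22 nt. At divergent loci it was 25 to 29 nt. Over all members it was 41 and 38 nt in wild type, 39 and 37 nt in *rpb-9*, and 38 and 37 nt in rescue, which overlap.

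The share of nascent counts under 30 nt set start-region loci apart from divergent, antisense and no-gene loci, with no overlap of the library ranges. It was 16.2 to 25% at start-region loci, 50.2 to 63.2% at divergent loci and 49.3 to 83.2% at antisense loci, and 46.0 to 53.6% near no gene. The share at 40 nt or more was 50.2 to 63.1%, 14.5 to 24.8% and 6.89 to 20.9% at the first 3 of these. Antisense reads were longest in *rpb-9*, with 17.2 and 20.9% at 40 nt or more against 6.89 and 12.4% in wild type and 10.6 and 7.77% in rescue. That group rests on 59 to 94 loci per library.

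**Figure D5:**
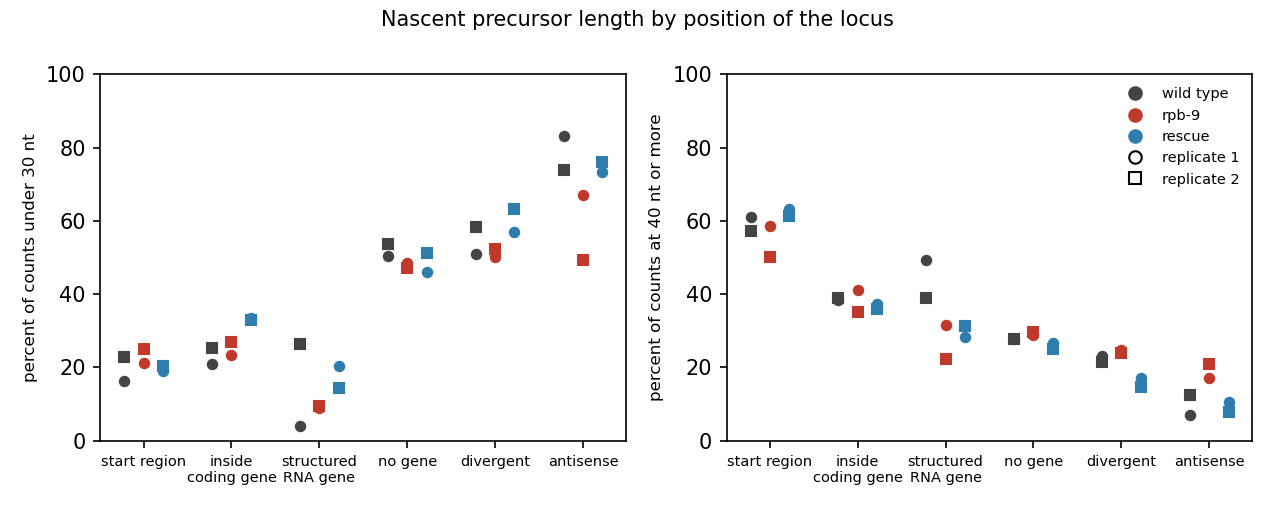
Percent of nascent precursor counts under 30 nt (left) and at 40 nt or more (right) by position of the locus, 1 point per library, circles replicate 1 and squares replicate 2, colours as genotypes. Start-region loci have 16.2 to 25% of counts under 30 nt, divergent loci 50.2 to 63.2% and antisense loci 49.3 to 83.2%.

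Much of that contrast was carried by the loci with most reads. Where each locus with at least 10 nascent counts was given equal weight, the median of the loci's mean lengths was 32 nt at 1046 start-region loci, 30.4 nt at 134 divergent loci and 29.5 nt at 67 antisense loci. It was 38.1 nt at 24 loci in structured RNA genes, 32.1 nt over 1619 members and 29.1 nt over 3040 21UR loci.

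The mean length per locus was tested with limma at 1075 nascent loci, 401 of them members, each with at least 10 counts in every nascent library. None was called for *rpb-9* against wild type, rescue against wild type or rescue against *rpb-9* (0% of 1075 each), and an unadjusted p under 0.05 was found at 46, 46 and 33 members (11.5%, 11.5% and 8.23%, against 13.4%, 11.9% and 13.0% of all loci). Of the 46 for *rpb-9*, 19 were longer and 27 shorter. The median difference over members was −0.74 nt, with 60.8% shorter, while over 324 21UR loci it was 0.83 nt with 30.2% shorter, and over all 1075 loci −0.12 nt.

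For rescue against wild type, which shares the wild-type libraries, the median was −1.14 nt over members and −0.86 nt over 21UR loci. For rescue against *rpb-9* it was −0.43 nt over members and −2.02 nt over 21UR loci. The named loci ranged widely, and none passed the test. At *mcm-3* the difference of *rpb-9* from wild type was 0.07 nt (SE 0.84), at *C33F10.12* −0.45 nt (SE 0.86) and at *ant-1.1* −2.45 nt (SE 1.19). At *C08D8.3* it was −6.10 nt (SE 1.35, limma adjusted p = 0.236) and −5.91 nt (SE 1.35, limma adjusted p = 0.276) in rescue. The difference of *rpb-9* was −7.58 nt (SE 2.30, limma adjusted p = 0.310) at *eef-1B.1*, −7.35 nt (SE 2.08, 0.295) at *smy-3*, −5.60 nt (SE 1.49, 0.266) at *sls-2.16* and −12.5 nt (SE 9.66, 0.596) at *F01D5.12*. At *F01D5.12* the most-read sequence had 75 nt, the ceiling, and the nascent wild-type means were 40.7 and 70 nt.

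In the nucleoplasm 73 loci could be tested for length, 25 of them members, and none was called in the same 3 comparisons (0% of 73 each), with 0, 1 and 0 members at an unadjusted p under 0.05 in limma, against 5.48%, 2.74% and 4.11% of all loci. Over all member reads the median was 31 and 35 nt in wild type, 37 and 48 nt in *rpb-9*, and 51 and 33 nt in rescue. The rescue values overlap those of both other genotypes. Where each locus counted once, the difference of *rpb-9* from wild type was 0.784 nt, against 9.5 nt over reads.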

How the data were processed

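Short capped RNA of chromatin-bound and nucleoplasmic fractions was sequenced as single reads of 75 bases. The authors deposited a table of distinct precursor sequences with their start, length and library. For each sequence they deposited a count of reads, without normalization, and a signal, which equals the count times 1 constant per library. Length is a deposited value of the table of another kind, in nt. The deposited list of mature piRNAs holds log2 RPM values pooled per genotype, of which only the positions were used. The submitters' processing notes name BWA, STAR, MACS2, featureCounts, DESeq2 and the build ce11. Which of them made the precursor table, how the classes were assigned and how the constant was set are not given in the sources used here. The library names sx1316, rpb9 and rescue were matched to the labels, sx1316 being wild type by elimination.

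Repeated lines (3815 of 173010) were dropped, sequences were summed by start, and loci were placed against the WBcel235 annotation. The members and the lists were chosen with earlier results of these data known. Named loci are the 12 with the highest mean signal, then loci called for abundance or length, of which there were none; others were named after their values were seen. The values of 1 of the 12 are not reported here. Counts were tested with edgeR 4.0.16 (glmQLFit, 1 group term over 12 libraries, scale from the authors' constants) and precursor lengths with limma 3.58.1 in R 4.3.3, with Benjamini-Hochberg adjustment over all loci tested and a threshold of 0.05. Standard errors are the size of the log2 fold change over the square root of F. DESeq2 1.42.0, other scalings, filters, a replicate block and leaving out each library were tried as alternatives. An adjusted p that DESeq2 gave as NA was not counted as a call. Scripts were tested on simulated data, in python 3.11.15 and R. At a simulated spread of 0.6, near the 0.5916 of the pooled fit, edgeR recovered 7.07% of 4-fold and 70% of 16-fold changes. At a spread of 0.2 it recovered 98% and 100%. For shifts of 8 nt limma recovered 24% at a noise of 3 nt and 100% at 1 nt. The absence of calls therefore does not show the absence of changes. PCR copies cannot be told from separate molecules here. Antisense and overlapping genes were told apart by the strand in the table. The RNA-seq and 22G siRNA tables were not used here.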

Additional observations from a re-analysis of the deposited data

How the results depend on the processing

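Percentages in brackets are the share of all tested loci called. The number of members called for abundance differed between fits and scalings. For *rpb-9* against wild type in the nascent fraction, where edgeR called 0, TMM factors gave 2 (0.29%), RLE factors 10 (1.03%), DESeq2 18 (3.35%), no filter on low counts 2 (0.0879%) and each fraction fitted alone 46 (8.39%). For rescue against wild type in the nascent fraction RLE factors gave 2 (0.0966%), DESeq2 16 (1.35%) and the fraction alone 16 (1.42%), and for rescue against *rpb-9* DESeq2 gave 2 (0.418%). In the nucleoplasm *rpb-9* against wild type had 2 (0.129%) with RLE factors, 21 (2.57%) with DESeq2 and 3 (0.0791%) with no filter, rescue against wild type 13 (1.13%) with DESeq2 and 1 (0.0264%) with no filter, and rescue against *rpb-9* 6 (1.19%) with DESeq2. The difference between fractions had 1 (0.0176%) with no filter. Length calls became 12 (3.63%), 10 (3.53%) and 9 (4.47%) in the 3 nascent comparisons with the read-weighted median in place of the mean. For each of these the cause was not tested.

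Leaving out 1 library gave 0 to 7 called members for *rpb-9* against wild type in the nascent fraction (7 without nucleoplasmic *rpb-9* replicate 1), 0 to 3 in the nucleoplasm, 0 to 1 for rescue against wild type in the nucleoplasm and for the difference between fractions, and 0 in the other abundance comparisons. Length calls were 0 in the nascent and 0 to 1 in the nucleoplasmic comparisons. The nascent median log2 fold change of members ran from 0.37 (without nascent *rpb-9* replicate 2) to 0.73 for *rpb-9* and from 0.24 (without nascent rescue replicate 2) to 0.70 for rescue. It was 0.97 and 0.83 with RLE factors, and 0.29 for *rpb-9* with no filter. The median length difference ran from −0.74 to −0.30 nt, the lesser value without nascent *rpb-9* replicate 2, and was 0 nt with read-weighted medians.

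The difference in median read length over all members, −1.5 nt in the nascent fraction, was −25 nt with the *W04D2.7* locus included, 1 nt without the most-read member, and −3 to 0 nt without 1 library. In the nucleoplasm, where it was 9.5 nt, it was 0 nt with that locus, 20 nt without the most-read member, −0.5 nt over distinct sequences and 0.784 nt over loci, and 4 to 15 nt without 1 library. Nucleoplasmic summed signal of *rpb-9* over wild type was 2.13 as a share of the table total and 0.751 to 1.78 without 1 library. Rescue over wild type was 1.10 to 2.61 there, and the nascent ratios were 1.28 to 1.72 and 1.33 to 1.96.

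Of 24 log2 fold changes of *rpb-9* at the named loci (12 loci, both fractions), 15 kept their sign under each alternative run and 9 passed the threshold under at least 1 of them. Nascent *eef-1B.1* became 0.11 (TMM), 0.00 (table totals) and 0.35 (RLE), and nucleoplasmic *eef-1B.1* 0.31, 0.90 and 0.17. The second nucleoplasmic *aldo-2* start became 0.38, 0.90 and 0.26 in the same order. Nascent *sls-2.16* became 0.01 with TMM and 0.26 with RLE factors, and nascent *smy-3* 0.03 with RLE factors.

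Without 1 library the nascent values ran from −1.33 to 2.54 at *sls-1.10*, −0.26 to 0.13 at *eef-1B.1*, −0.81 to 0.29 at *smy-3*, −0.35 to 0.07 at *sls-2.16* and −2.35 to 0.36 at *F01D5.12*. The nucleoplasmic values ran from −0.54 to 0.08 at *eef-1B.1*, −0.08 to 1.97 at *smy-3*, −0.13 to 1.11 at *sls-2.16* and −0.50 to 0.31 at the second *aldo-2* start.

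Libraries with the same replicate number did not deviate together (correlations −0.0485 to 0.103 over 15 pairs of groups), so the numbers are not taken as a pairing. With the replicate number as a block 0 members were called for abundance or length, the nascent median of members was 0.60, and nascent *sls-1.10* turned to 0.20. The median over members tested gave no nucleoplasmic value, because it was 0. With 19 counts at the median locus, few members had the depth for a test, and 2 libraries per group limit it further.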

Other observations

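By the annotation's gene types, which were not checked, the 26 members at small structured RNA genes comprised 12 at snoRNA genes (with *smy-3*), 10 at snRNA genes and 4 at miRNA genes. Of the 26, 17 began within 4 nt of the annotated 5′ end. Of the snRNA-type members, 8 were spliced leader genes, 1 for SL1 and 7 for SL2. The summed nascent signal of the SL2 members was 604 and 508 in wild type, 444 and 742 in *rpb-9*, and 494 and 636 in rescue. Their nucleoplasmic signal was 959 and 794, 1520 and 781, and 859 and 1083. Both sets of values overlap between genotypes.

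The snoRNA gene *C18A3.12* on chromosome II was the 1 structured RNA locus called higher with nascent libraries alone. Its nascent signal was 9.41 and 9.24 in wild type, 34.7 and 50.9 in *rpb-9*, and 14.4 and 13.0 in rescue, with a log2 fold change of 2.20 (SE 0.42, edgeR adjusted p = 0.0130) for *rpb-9* and 0.56 (edgeR adjusted p = 0.509) for rescue, both against the same wild-type libraries.

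At *top-2*, which encodes a DNA topoisomerase, a pair of starts 197 and 193 nt upstream of the annotated gene had nascent signals of 8.09 and 7.95 in wild type, 24.2 and 37.7 in *rpb-9*, and 22.5 and 17.6 in rescue, and of 2.64 and 2.79, 11.8 and 14.3, and 19.8 and 12.3. These loci were chosen after their values were seen.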
